A study of Mus musculus with 4 samples.

Results

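Macrophages that meet IL-4 or IL-13 take on a state called alternative activation, in which they break down arginine, secrete chitinase-like and resistin-like proteins, take up lipid and carry sugar-binding lectins on their surface. The signal runs from the IL-4 receptor through Janus kinases to the transcription factor STAT6, and the nuclear receptor PPARG works beside STAT6 on part of these targets. LPS, acting through TLR4, drives the opposite or classical state, marked by nitric oxide synthase and inflammatory cytokines. A set of 10 mouse genes tied to alternative activation is described here: Chi3l3 (now Chil3, also known as Ym1), Retnla (also called Fizz1), Arg1, Mrc1, Clec7a, Clec4n, Mgl2, Clec10a, Fabp4 and Pparg. They were chosen by name, as every non-control probe whose gene name in the scanner files was 1 of the 10. This gave 10 probes, 1 for each gene, of 39429 probes that carry 31829 gene names.

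The cells were splenocytes of 8-week-old female C57BL/6 mice, kept in culture for 72 h with both IL-4 and LPS. One group received 10 µM imatinib, and the control group was kept in the same medium with no imatinib. Imatinib is a drug that blocks the tyrosine kinases ABL, KIT and PDGFR, and also CSF1R, the receptor through which macrophages receive M-CSF. Each group has 2 arrays, an Agilent 1-colour design on which a probe's brightness follows the amount of its RNA. The labels do not say whether the replicates of a group were separate mice or cultures, so the p-values measure only the spread between these samples, which may be technical. Whole spleen holds mostly lymphocytes with few macrophages, the labels name no sort, and in such bulk RNA a change in the number of cells of a type and a change in RNA per cell cannot be told apart.

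The depth of an array is its signal over background. Probes well above background numbered 25156 and 26741 with imatinib, against 25269 and 24983 in the controls. No spot was saturated, and all 4 arrays lay on 1 slide, the imatinib arrays at positions 2 and 4 and the control arrays at positions 1 and 3. Levels are given as processed signal, the background-subtracted brightness in arbitrary units, and as log2 of that signal minus the 75th percentile of the array, so that a log2 level of 0 equals the 75th percentile. A log2 difference is imatinib minus control, and it passed the test at an adjusted p under 0.05 (limma, two-sided, Benjamini-Hochberg over the 25375 probes tested). With 2 arrays a group an exact permutation test cannot go below p = 0.333, so limma borrowed the spread of all probes. Levels of different probes are not compared as amounts of RNA, since probes differ in how well they bind. Where levels are summed over a list, its brightest probes weigh most.

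Each gene was read by 1 probe of 60 bases. The last 30 bases of the probes on which most of the results rest are printed here, 5′ to 3′ along the transcript, because they are part of the stretch whose RNA was measured. Capitals mark the polyadenylation signal AATAAA where the probe holds it.
Chi3l3: atgcttgtttcttgctctcacAATAAAttc
Arg1: tgaagtagacaagctggggattggcaaggt
Clec7a: tccaaattgctggggatctgtttatagctt
Clec4n: tgttacttgaaagtataagatgAATAAAca
Mgl2: tgtcgcaacAATAAAatttgagctttaatc
Fabp4: actacaatagtcagtcggatttattgtttt
The signal began at base 52 of the 60 in the Chi3l3 probe, at base 53 in the Clec4n probe and at base 40 in the Mgl2 probe. The other 7 probes did not hold these letters. No probe of the 10 shared a run of more than 15 bases with any of the other 39428 probes, on either strand. Binding of the probes to transcripts of related genes, such as Chil4 beside Chi3l3 or Clec10a beside Mgl2, was not analysed here.

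RefSeq start sites (build GRCm38.p6) were available here for 6 of the 10 genes, with windows of 300 bases, 250 of them before the start. STAT6 prefers TTC and GAA with any 4 bases between them, and other STAT factors prefer them with any 3 bases between. Both motifs read the same on either strand. The motif with 4 bases between was in 6.95% of all 32851 windows, and among the 6 genes it was in those of Clec7a and Retnla. The motif with 3 bases between was in 8.30% of all windows and, of the 6 genes, in that of Chi3l3. The 3 windows are printed 5′ to 3′ on the strand of the gene, with the match in capitals, since these genes gave unlike results: Chi3l3 and Clec7a were raised with imatinib and Retnla was never above background.
Chi3l3, chr3:106167515-106167814, minus strand: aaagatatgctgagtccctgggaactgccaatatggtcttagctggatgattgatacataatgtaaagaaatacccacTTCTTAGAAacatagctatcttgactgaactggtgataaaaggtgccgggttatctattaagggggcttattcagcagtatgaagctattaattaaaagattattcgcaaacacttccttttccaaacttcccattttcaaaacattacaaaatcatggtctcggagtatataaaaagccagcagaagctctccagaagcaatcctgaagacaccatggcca
Clec7a, chr6:129472730-129473029, minus strand: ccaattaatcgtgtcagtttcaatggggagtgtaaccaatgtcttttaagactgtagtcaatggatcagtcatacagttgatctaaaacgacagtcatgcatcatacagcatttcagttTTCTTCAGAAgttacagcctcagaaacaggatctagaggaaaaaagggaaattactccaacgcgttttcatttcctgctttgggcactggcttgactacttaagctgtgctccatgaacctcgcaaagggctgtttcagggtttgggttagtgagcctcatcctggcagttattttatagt
Retnla, chr16:48842359-48842658, plus strand: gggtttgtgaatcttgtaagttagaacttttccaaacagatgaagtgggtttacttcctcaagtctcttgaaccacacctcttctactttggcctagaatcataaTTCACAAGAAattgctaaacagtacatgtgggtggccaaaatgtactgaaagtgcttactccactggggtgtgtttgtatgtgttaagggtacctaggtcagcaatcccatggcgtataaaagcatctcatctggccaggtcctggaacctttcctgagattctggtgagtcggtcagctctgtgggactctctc
Counted from the start site of the printed window, the match began at position -172 in Chi3l3, -131 in Clec7a and -145 in Retnla. The window of another Clec7a start site held the same match at position -125. The windows of Mrc1, Mgl2 and Pparg held neither motif. GGAAGT, the core that the myeloid factor PU.1 prefers, was on either strand in 23.8% of all windows and in those of Chi3l3, Mgl2, Mrc1 and Retnla. These matches describe letters only, and no binding was measured.

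With imatinib, 6 of the 10 genes were higher: Chi3l3, Arg1, Clec7a, Clec4n, Fabp4 and Mrc1. Mgl2 was slightly lower, Pparg did not pass the test, and Retnla and Clec10a were not above background on any array. Of the 8 genes that could be tested, 6 were higher, 1 was lower and 1 did not pass, while over all probes tested 19.3% were higher and 22.5% were lower. All 6 higher genes passed a size of 2-fold, which 6.10% of all probes did in that direction and 1.30% in the other. The median log2 difference of the 8 genes was 3.70, or 3.25 with Arg1 and Fabp4 at their lower bounds, beside 0.0009 over all probes. Arg1 and Fabp4 entered the test only through the imatinib arrays, since their control arrays were below background, and genes of that kind had to differ.

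**Figure D1:**
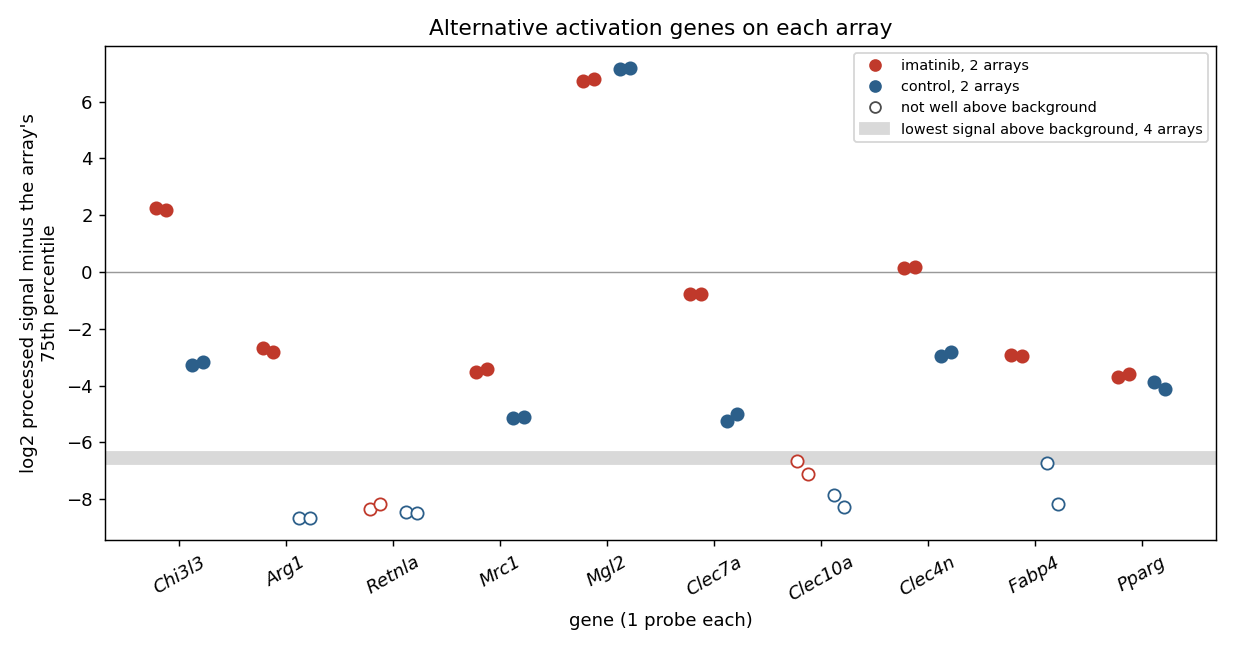
Log2 processed signal minus the array's 75th percentile (vertical axis) of the 10 genes on each array, with imatinib (red) left of control (blue). Each point is 1 array, and open points were not well above background. The imatinib points of Chi3l3, at 2.25 and 2.18, stand far above its control points, at -3.29 and -3.18, while those of Mgl2, at 6.73 and 6.78, lie just under its control points, at 7.16 and 7.17.

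Chi3l3 encodes Ym1, a secreted chitinase-like protein with no chitinase activity that alternatively activated mouse macrophages make in large amounts. Its processed signal read 3326 and 3065 on the imatinib arrays, against 75.7 and 94.3 on the control arrays. All 4 values were above background, so its rise is a measured ratio and not a bound. The log2 level was 2.21 ± 0.053 with imatinib and -3.23 ± 0.077 without (SD, n = 2 each), a difference of 5.45 (SE 0.073, limma adjusted p = 0.000667), or 43.6-fold. Chil4, its neighbour on chromosome 3, encodes the related protein Ym2. The log2 level of Chil4 was -4.92 and -4.53 with imatinib, against -5.36 and -7.51 without, and 1 control array was not above background. Its difference of 1.71 (SE 0.77) did not pass (limma adjusted p = 0.152), but it did without control 1 (2.79, adjusted p = 0.0139) and with normexp (0.42, adjusted p = 0.00138). Without control 2 it was 0.63 (adjusted p = 0.112).

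Arg1, the arginase that turns arginine into ornithine and urea and so takes the substrate of nitric oxide synthase, was seen only with imatinib. The processed signal read 110.3 and 95.6 on the imatinib arrays, against 1.83 and 2.13 on the control arrays. The unsubtracted spot brightness shows how low the control values lie: it was 173.4 and 151.5 with imatinib over a local background of 52 and 53, and 48.0 and 51.4 without imatinib over a local background of 50 and 54. The control spots were thus no brighter than the glass around them. Arg1 was at least 12.5-fold higher with imatinib, measured against the lowest signal called above background on each control array. That bound was not tested. The limma adjusted p of 0.000667 belongs to the fitted log2 difference of 5.91, which rests on control values below background. The levels behind the fit were -2.75 ± 0.12 with imatinib and -8.65 ± 0.0072 without (SD, n = 2 each). Wherever an adjusted p stands beside a bound, it likewise belongs to the fitted difference.

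Retnla encodes a resistin-like protein that is secreted together with Ym1 by alternatively activated macrophages. Its processed signal read 2.14 and 2.33 on the imatinib arrays, against 2.10 and 2.36 on the control arrays. Neither group rose above background, so no fold is given, and a level below what these arrays detect was not measured. The spot brightness was 49.9 and 51.8 with imatinib, against 51.6 and 49.7 without, under a local background of 54.5 to 59.

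Among the surface lectins, Clec7a encodes dectin-1, the receptor for fungal beta-glucan. The processed signal read 409.8 and 396.9 on the imatinib arrays, against 19.4 and 26.4 on the control arrays. The imatinib arrays lay together and the control arrays lay a little further apart, far below them. The log2 level was -0.77 ± 0.0017 with imatinib and -5.13 ± 0.16 without (SD, n = 2 each), a difference of 4.36 (SE 0.099, limma adjusted p = 0.000671), or 20.6-fold.

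Clec4n encodes dectin-2, a receptor for fungal mannans that signals through the Fc receptor gamma chain. The processed signal read 774.9 and 761.4 on the imatinib arrays, against 95.1 and 121.0 on the control arrays. Both groups were above background and did not overlap. The log2 level was 0.16 ± 0.013 with imatinib and -2.89 ± 0.098 without (SD, n = 2 each), a difference of 3.05 (SE 0.075, limma adjusted p = 0.000710), or 8.27-fold.

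Mrc1, the macrophage mannose receptor CD206, takes up mannosylated glycoproteins and is a common surface marker of alternative activation. Its processed signal read 60.5 and 62.9 on the imatinib arrays, against 21.2 and 24.9 on the control arrays. These are dim but above background on all 4 arrays. The log2 level was -3.48 ± 0.071 with imatinib and -5.11 ± 0.016 without (SD, n = 2 each), a difference of 1.63 (SE 0.067, limma adjusted p = 0.000956), or 3.1-fold.

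Mgl2 and Clec10a, neighbours on chromosome 11, encode the galactose-type lectins CD301b and CD301a. Mgl2 was the exception among the tested genes. Its processed signal read 74092 and 74656 on the imatinib arrays, against 105567 and 123090 on the control arrays. The probe was bright everywhere without a saturated spot, while that of the neighbouring Clec10a was at background, and the imatinib arrays were the lower ones. The log2 level was 6.76 ± 0.039 with imatinib and 7.16 ± 0.0092 without (SD, n = 2 each), a difference of -0.41 (SE 0.060, limma adjusted p = 0.0115), or 1.33-fold lower. Leaving out either imatinib array ended the call (adjusted p = 0.0830 without the first and 0.0679 without the second), as did keeping dim probes in the test (adjusted p = 0.0558). Clec10a was not above background: its processed signal was 6.96 and 4.88 with imatinib, against 3.22 and 2.74 without, and no fold is given. Whether the Mgl2 probe reads Mgl2 RNA alone was not tested.

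Of the lipid-handling genes, Fabp4 was seen only with imatinib and Pparg differed little. Fabp4, a fatty acid carrier of adipocytes and macrophages and a classical PPARG target, had a processed signal of 92.0 and 88.0 on the imatinib arrays, against 6.90 and 2.95 on the control arrays. The control arrays were below background and unlike each other. The log2 levels were -2.94 ± 0.014 with imatinib and -7.46 ± 1.01 without (SD, n = 2 each), and Fabp4 was at least 11.0-fold higher with imatinib (limma adjusted p = 0.00677). Fabp5, a close relative on the same chromosome that many cells make, was chosen after its values were seen and was lower with imatinib by 0.44 on the log2 scale (difference -0.44, SE 0.064, adjusted p = 0.0116), a call lost without either imatinib array (adjusted p = 0.0771 and 0.0720).

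Pparg was the most often measured of the 10, since its probe was spotted 10 times on each array and every spot was above background. The spots ran from 46.2 to 60.8 and from 49.6 to 61.6 in processed signal on the 2 imatinib arrays, against 43.6 to 56.6 and 42.1 to 52.9 on the 2 control arrays. The ranges of spots overlapped between the groups, while the means over spots, at log2 levels of -3.71 and -3.60 with imatinib and -3.88 and -4.11 without, did not. The difference was 0.34 (SE 0.11, limma adjusted p = 0.0681). It passed without control 1 (0.45, adjusted p = 0.0448) and with another background correction (0.25, adjusted p = 0.0166), and over all alternatives the adjusted p ran from 0.0166 to 0.626.

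**Figure D2:**
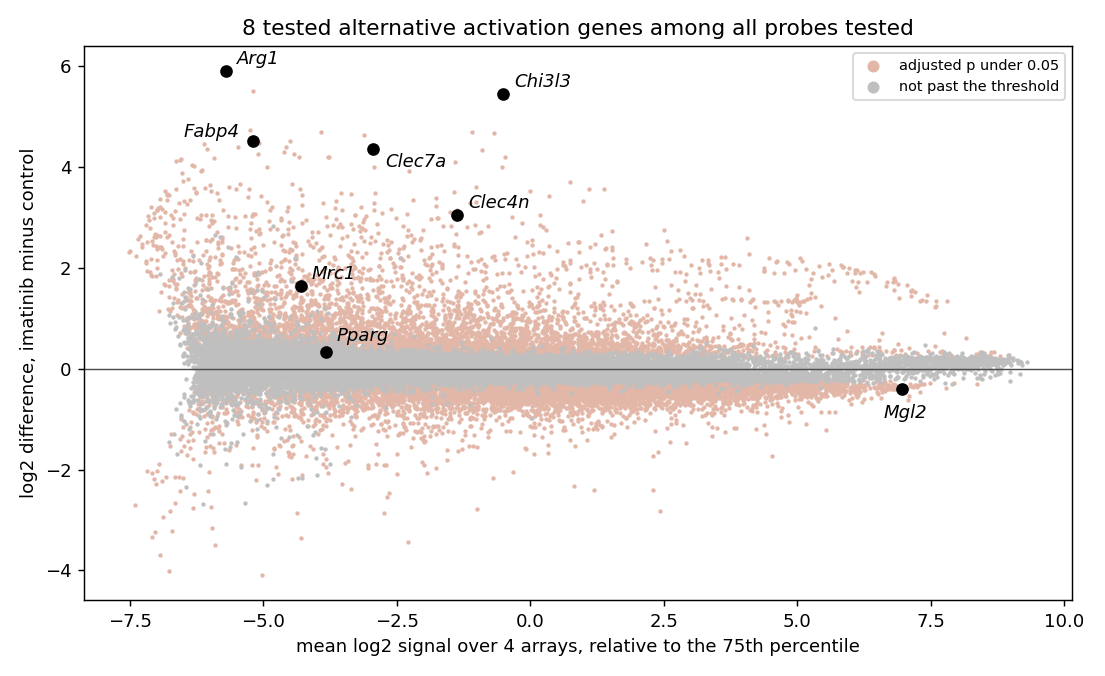
Log2 difference, imatinib minus control (vertical axis), against the mean log2 level over the 4 arrays (horizontal axis, relative to the 75th percentile) for all 25375 probes tested, with the 8 tested genes in black. Arg1, Chi3l3, Fabp4, Clec7a, Clec4n and Mrc1 lie above 0 and Mgl2 below it at the bright end. The fitted values of Arg1 and Fabp4 are drawn, which rest on control signals below background.

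The sizes, but not the directions, depended on how background was removed. The normexp correction with an offset of 50 adds a constant to every signal, which changes the log2 of dim signals most. It gave log2 differences of 4.66 for Chi3l3, 2.48 for both Clec7a and Clec4n, 1.60 for Arg1, 1.42 for Fabp4 and 0.72 for Mrc1. The dim control values moved most, and Mgl2, bright on every array, stayed at -0.41. Scaling to the median of each array moved the median of all probes to -0.19 and scaling to the spike-in probes moved it to -0.28. Under spike-in scaling Chi3l3 differed by 5.17, Clec7a by 4.08, Clec4n by 2.77, Mrc1 by 1.35 and Mgl2 by -0.69, while Pparg differed by 0.058. Relative to the median of all probes these values are those of the 75th percentile scaling.

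**Figure D3:**
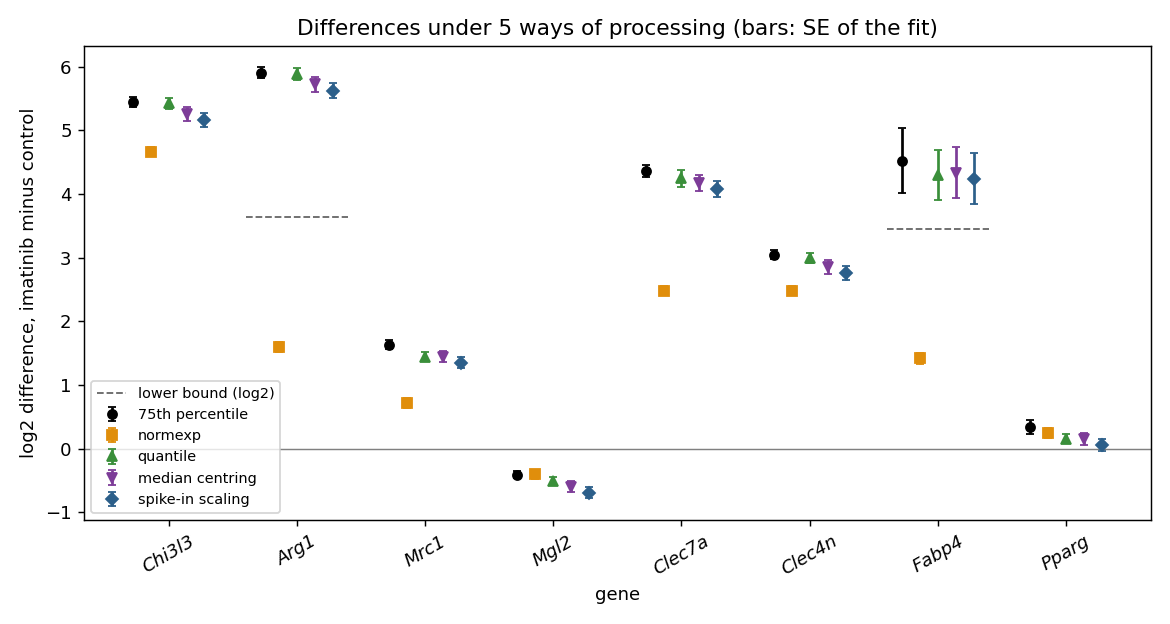
Log2 difference, imatinib minus control (vertical axis), of the 8 tested genes under 5 ways of processing, with the SE of each fit as bars. Dashed lines are the log2 lower bounds of Arg1 (3.65) and Fabp4 (3.46). Normexp gives the smallest value for the 6 higher genes, and Mgl2 lies below 0 in all 5.

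Upstream of these genes, IL-4 receptor signalling was represented by 19 genes, of which 16 were tested: 8 were higher, 0 were lower and 8 did not pass, with a median log2 difference of 0.21. Irs1 was the only 1 of the 8 that was below background in the controls. Shares to set beside this and the later lists are 19.3% higher and 22.5% lower, over all probes tested. The median of the IL-4 receptor list was 0.02 with median centring and -0.07 with spike-in scaling. The 4 with the largest changes were 2 adaptors and 2 feedback inhibitors. Irs1, an insulin and IL-4 receptor substrate, was not above background without imatinib and was at least 17.9-fold higher with it (limma adjusted p = 0.000667). Cish and Socs1, inhibitors that STAT factors induce, were higher by 2.15 (SE 0.058, adjusted p = 0.000710) and 1.21 (SE 0.10, adjusted p = 0.00404), and Irs2 by 1.31 (SE 0.063, adjusted p = 0.00122).

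The receptor and its main factor gave mixed values. The brightest Il4ra probe differed by -0.08 (adjusted p = 0.363) and by 0.03 under quantile normalization, while a dimmer probe passed at 0.49 (adjusted p = 0.00989). The brightest Stat6 probe differed by 0.19 (adjusted p = 0.0753), by -0.0014 with median centring and by -0.096 with spike-in scaling. The other Stat6 probes differed by 0.47 (adjusted p = 0.00956) and -0.20 (adjusted p = 0.0695). The probes of each gene thus did not give 1 direction. Il4, Il13 and the decoy receptor Il13ra2 were not above background on any array.

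Beyond the 10 genes, 40 more IL-4 targets of macrophages were listed, and 25 of them could be tested. Of these, 14 were higher, 4 were lower and 7 did not pass, with a median log2 difference of 1.09 (1.05 with bounds). Of the 14 higher genes, 7 were below background on both control arrays, so they entered the test only through the imatinib arrays and had to differ. With these at their bounds, 12 of the 14 were at least 2-fold higher. The 4 lower genes were Gatm (-1.51), Batf3 (-1.18), Cd36 (-1.02) and Il1r2 (-0.47), each above background on all 4 arrays. Gpnmb, a glycoprotein of lysosome-rich macrophages, was higher by 4.64 (SE 0.17, adjusted p = 0.000809). Trem2, a lipid-sensing receptor, was at least 15.2-fold higher (adjusted p = 0.000667), Cd200r1, an inhibitory receptor, at least 4.62-fold (adjusted p = 0.00943), and Atp6v0d2, a subunit of the lysosomal proton pump, at least 4.28-fold (adjusted p = 0.00234). The transglutaminase Tgm2 and the chemokine Ccl22, chosen after their values were seen, were higher by 1.05 (adjusted p = 0.0185) and 2.11 (adjusted p = 0.00116). A dimmer Tgm2 probe differed by 2.45 (adjusted p = 0.00124), and the call of the brightest one was lost without either imatinib array (adjusted p = 0.0754 and 0.0679). Igf1, a growth factor made by macrophages and many other cells, was also chosen after its values were seen and shows how far probes of a gene can part. Its brightest probe differed by -0.07 (adjusted p = 0.657), by 0.07 without control 1 and by -0.35 with spike-in scaling (adjusted p = 0.0279), and another by 0.03 (adjusted p = 0.919), while 2 probes below background on the control arrays were at least 16.1-fold (adjusted p = 0.000667) and at least 11.0-fold (adjusted p = 0.00101) higher with imatinib. Another 13 listed targets were not above background on any array, among them Chil1, Cd209a, Cd163, Alox15, Mmp12, Folr2 and Lyve1. Alternative activation targets were thus only partly measurable in this mixture.

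**Figure D4:**
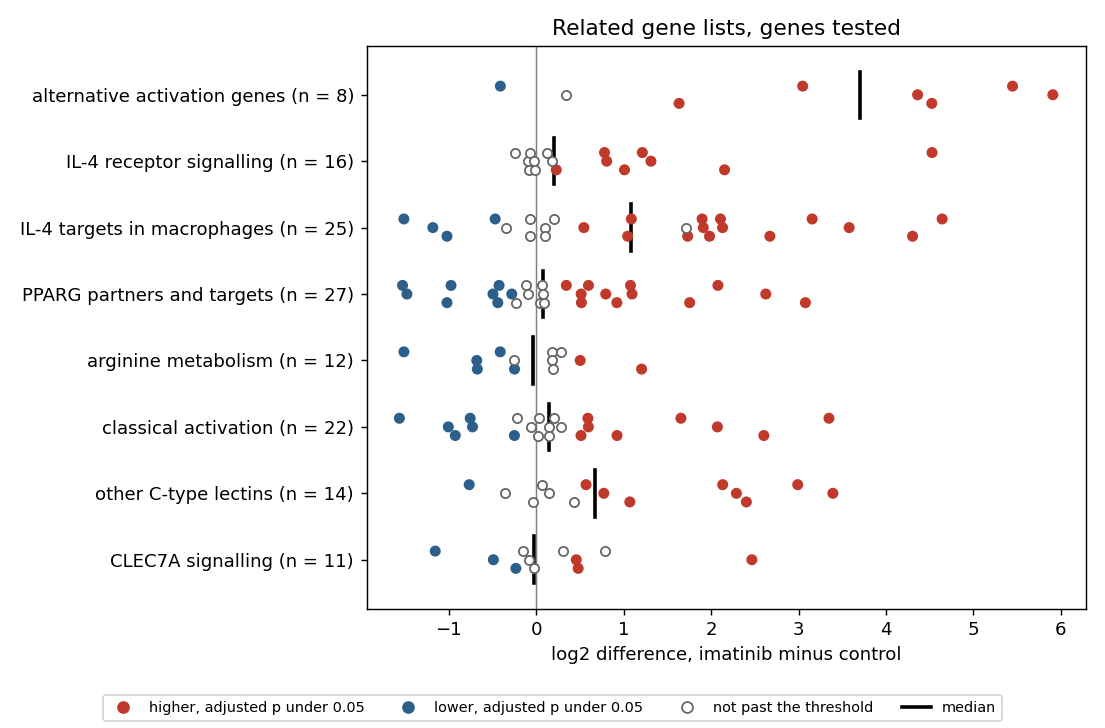
Log2 difference, imatinib minus control (horizontal axis), of the tested genes in 8 lists, 1 point for each gene by its brightest probe. Red points passed the test as higher, blue points as lower, open points did not pass, and the black bar is the list median. The 10 genes' own list has a median of 3.70 over 8 tested, against 1.09 for the other IL-4 targets and 0.07 for PPARG partners and targets.

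PPARG acts as a pair with RXR and turns on genes of lipid uptake and storage. Of 30 listed partners and targets 27 were tested, with 12 higher (2 of them above background only with imatinib), 8 lower and 7 not passing, and a median of 0.07 (-0.11 with median centring and -0.21 with spike-in scaling). Rxra, the partner of PPARG in the pair, was higher by 0.92 (SE 0.12, adjusted p = 0.00895) and by 0.85 on its other probe (adjusted p = 0.00679). Lpl, the lipoprotein lipase, was higher by 3.08 (SE 0.083, adjusted p = 0.000710) and by 3.66 on its other probe (adjusted p = 0.000667). Cpt1a, which carries fatty acids into mitochondria, was higher by 1.76 (SE 0.070, adjusted p = 0.000944), and its other tested probe differed by 0.97. The lipid droplet gene Cidec and the coactivator gene Ppargc1a were above background only with imatinib, at least 1.88-fold (adjusted p = 0.00587) and at least 1.91-fold (adjusted p = 0.00958).

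The PPARG targets did not all go one way. Cd36, a scavenger receptor for oxidised lipid, was lower, at log2 levels of 0.07 and -0.03 with imatinib, against 1.05 and 1.03 without (difference -1.02, SE 0.067, adjusted p = 0.00232). Nr1h3, the oxysterol receptor LXR alpha, was higher by 1.08 (SE 0.13, adjusted p = 0.00822). Of the 8 lower genes of the list, against 12 higher, Abcg1 differed by -1.53, Scd1 by -1.48 and Abca1 by -0.97. These, Cd36 and Nr1h3 were chosen after their values were seen. Fabp4, Lpl and Cidec are also adipocyte genes: of 8 adipocyte markers 5 were tested, 3 were higher and 1 was lower, and their summed level was 0.815 to 0.831 with imatinib, against 0.228 to 0.234 without, in multiples of the 75th percentile. Lpl, which macrophages also make, gave most of that rise: with Lpl left out the sums were 0.219 to 0.245 with imatinib, against 0.155 to 0.167 in the controls. Adiponectin (Adipoq) was the lower one, and Lep and Cfd were not above background on any array. Whether adipocytes had a part in the Fabp4 result was not tested.

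Arg1 was set beside 15 other genes of arginine metabolism, of which 12 were tested: 2 were higher like Arg1, 5 were lower and 5 did not pass, with a median of -0.03. The share that was higher, 16.7%, lay below the 19.3% over all probes tested. Ass1, which rebuilds arginine from citrulline, was higher by 1.21 (SE 0.060, adjusted p = 0.00129). Gatm, the first enzyme of creatine synthesis, was lower with a difference of -1.51 (SE 0.077, adjusted p = 0.00134), as were spermidine synthase Srm at -0.68 (SE 0.069, adjusted p = 0.00568) and ornithine aminotransferase Oat at -0.67 (SE 0.068, adjusted p = 0.00556). The inducible nitric oxide synthase Nos2, which competes with arginase for arginine, had log2 levels of -1.26 and -1.22 with imatinib, against -1.42 and -1.63 without. Its groups did not overlap, and the difference of 0.28 (SE 0.094) did not pass (limma adjusted p = 0.0794). It passed without control 1 (0.39, adjusted p = 0.0393), with normexp (0.25, adjusted p = 0.0158) and with a trend and robust variance model (adjusted p = 0.0145), and it was 0.096 with median centring (adjusted p = 0.435) and 0.0017 with spike-in scaling (adjusted p = 0.989). The mitochondrial arginase Arg2 was above background on 1 imatinib array only, and the transporter Slc7a2 on none.

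Genes of the classical state were split. Of 26 listed 22 were tested, with 8 higher (3 of them above background only with imatinib), 6 lower (1 of them above background only without it) and 8 not passing, and a median of 0.14 (-0.04 with median centring and -0.14 with spike-in scaling). Il1b, an inflammatory cytokine, was at least 5.54-fold higher with imatinib (adjusted p = 0.000710), and the formyl peptide receptor Fpr2 was higher by 2.07 (SE 0.13, adjusted p = 0.00215). Ptgs2, the inducible cyclooxygenase, was at least 4.70-fold higher (adjusted p = 0.00172), though not in the deposited value table (adjusted p = 0.0710), and the cystine transporter Slc7a11 at least 1.30-fold (adjusted p = 0.00189). Genes that were lower, chosen after their values were seen, included the chemokine Cxcl10 (difference -1.0, SE 0.058, adjusted p = 0.00178), the costimulatory receptor Cd40 (-0.92, SE 0.071, adjusted p = 0.00313) and the cytokine Tnf (-0.73, SE 0.062, adjusted p = 0.00400). Ido1, a tryptophan-degrading enzyme, was below background with imatinib and at least 2.61-fold lower (adjusted p = 0.0214), but its call was lost with normexp (-0.077, adjusted p = 0.433), without imatinib 2 (adjusted p = 0.0532), without control 1 (adjusted p = 0.0732), without control 2 (adjusted p = 0.0502) and with dim probes kept (adjusted p = 0.0719). The cytokine genes Il1a, Il12a, Il12b and Il23a were not above background on any array.

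Relatives of Clec7a and Clec4n were examined as well. Of 22 other C-type lectins of myeloid cells 14 were tested, and 8 were higher (2 of them above background only with imatinib), 1 was lower and 5 did not pass, with a median of 0.67. Clec4d and Clec4e, which follow Clec4n on chromosome 6 and bind fungal and mycobacterial glycolipids, were higher by 3.39 (SE 0.076, adjusted p = 0.000671) and 2.40 (SE 0.083, adjusted p = 0.000769). Clec4a1, another lectin of this family, was higher by 2.29 (SE 0.073, adjusted p = 0.000737). Clec4b1 and Clec4a2, which precede Clec4n, were chosen after their values were seen: Clec4b1 was at least 2.21-fold higher (adjusted p = 0.00206), and Clec4a2 differed by 0.43 (adjusted p = 0.0715). Clec4a3 was at least 3.15-fold higher (adjusted p = 0.0210), and its call was lost without either imatinib array (adjusted p = 0.0661 and 0.0791). Of the neighbours of Clec7a on the same chromosome, Clec9a, Clec1a and Olr1 were not above background on any array. Clec1b, chosen after its values were seen, was above background on all 4 and differed by 0.07 (adjusted p = 0.664), with the sign turned under quantile normalization (-0.10), median centring (-0.12) and spike-in scaling (-0.21) and without control 2 (-0.07).

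The signalling chain below Clec7a and Clec4n held 11 genes, all tested: 3 were higher, 3 were lower and 5 did not pass, with a median of -0.03. Over all probes tested 19.3% were higher and 22.5% were lower, so these counts alone do not set the chain apart. Fcer1g, the gamma chain that dectin-2 uses, had log2 levels of 1.27 and 1.26 with imatinib, against -1.21 and -1.19 without, and was higher by 2.47 (SE 0.057, adjusted p = 0.000679). Syk, the kinase that both receptors engage and that B cells also use, was lower, at 2.77 and 2.89 with imatinib, against 3.96 and 4.01 without (difference -1.15, SE 0.073, adjusted p = 0.00212). Malt1 (0.48) and Vav3 (0.46) were also higher, and Bcl10 (-0.49) and Prkcd (-0.23) also lower. The calls of Malt1 and Bcl10 changed under some alternatives. Vav3 (limma adjusted p = 0.0264) and Prkcd (limma adjusted p = 0.0451) were not followed over the alternatives. Receptors and gamma chain were thus higher and Syk lower in the bulk RNA, and which cells gave the Syk signal was not tested.

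Markers of cell types were read beside the 10 genes. Of 20 macrophage markers 15 were tested: 10 were higher, 1 was lower and 4 did not pass, with a median log2 difference of 1.66 (0.79 with bounds). Their summed level was 16.7 to 17.1 with imatinib, against 8.23 to 8.85 without, in multiples of the 75th percentile. With Itgam, the brightest of them, left out it was 15.2 to 15.5 with imatinib, against 4.97 to 5.23 in the controls. Fcgr1, C1qa, C1qc, Mertk and Vsig4 were not above background on any array. Among the brightest, Apoe was higher by 2.51 (SE 0.068, adjusted p = 0.000710), while Csf1r, the M-CSF receptor, differed by 0.28 (adjusted p = 0.101), and by -0.006 with spike-in scaling. Csf1r passed with normexp (0.25, adjusted p = 0.0196) and with a trend and robust variance model (adjusted p = 0.0101), and its other probes differed by 0.65 (adjusted p = 0.0528) and 0.27 (adjusted p = 0.0766). The brightest Itgam probe was lower, at -1.12 (SE 0.089, adjusted p = 0.00347), but holds a repeat of 20 bases, and the other Itgam probes differed by 0.03 and 0.44 without passing. The rise of 6 of the 10 genes thus stood beside higher macrophage markers, whose part in it was not tested.

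Other cell types moved too. T cell markers were higher for 12 of 14, with a median of 1.78 and a summed level of 58.7 to 58.9 with imatinib, against 27.0 to 28.1 without. Of 11 B cell markers 3 were higher and 6 were lower, with a median of -0.25 and a summed level of 257 to 267 with imatinib, against 280 to 301 without. Of the other myeloid lists, neutrophil markers were higher for 5 and lower for 1 of 8 tested, dendritic cell markers for 3 and 3 of 9, eosinophil markers for 2 and 2 of 5, and mast cell and basophil markers for 4 and 1 of 5. Neutrophil markers summed to 85.5 to 87.6 with imatinib, against 66.9 to 79.2 without. Leaving out Csf3r, the brightest, gave sums of 3.04 to 3.34 with imatinib, against 3.30 to 3.55 in the controls. The markers of NK cells were higher for 3 and lower for 1 of 6, of erythroid cells for 2 and 0 of 5, of endothelium for 1 and 1 of 5, and of fibroblasts for 0 and 1 of 2. The summed level of eosinophil markers was 4.41 to 4.45 with imatinib, against 3.12 to 3.19 without, a rise that came from Il5ra: with Il5ra left out the sums were 0.446 to 0.495 with imatinib, against 0.998 to 1.04 in the controls. Mast cell and basophil markers summed to 0.611 to 0.785 with imatinib, against 0.289 to 0.309 without. With Tpsb2, the brightest, left out the sums were 0.184 to 0.362 with imatinib, against 0.108 to 0.113 in the controls. The other tested Tpsb2 probe differed by 0.04. Tpsab1, which was not tested, was above background on 1 array only, at -2.65 on imatinib 1 and -8.76 on imatinib 2. The part of these cells in the results was not tested.

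**Figure D5:**
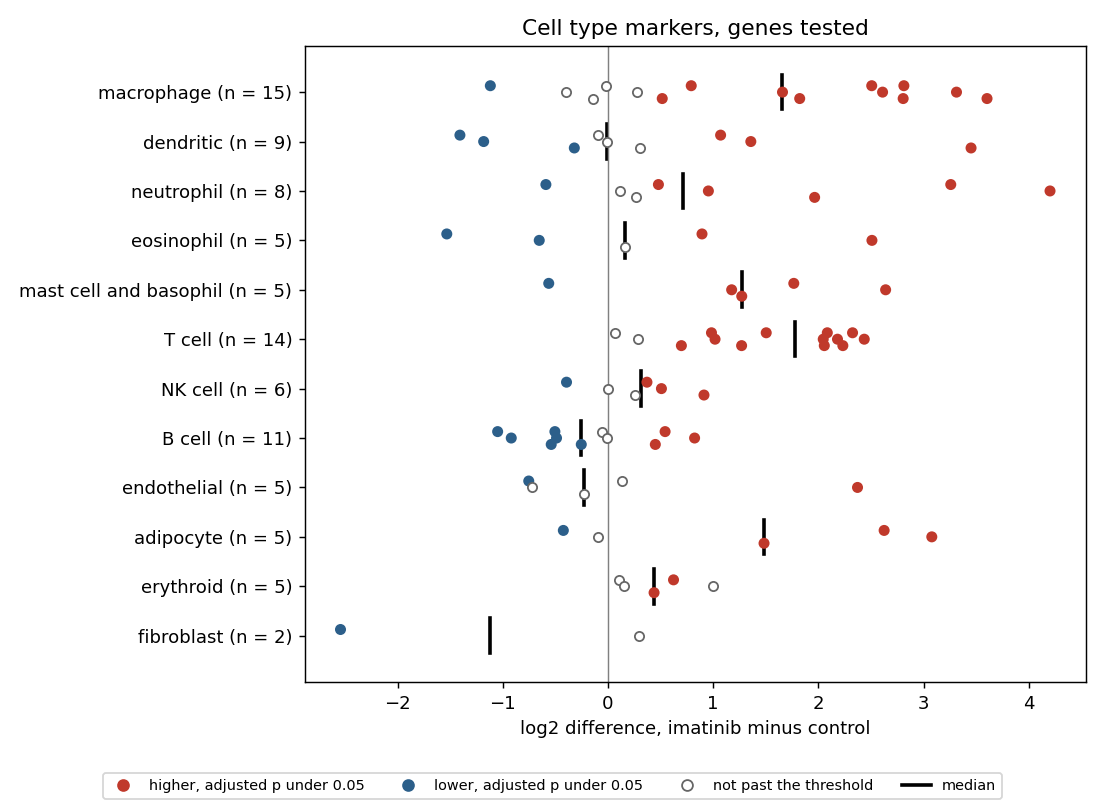
Log2 difference, imatinib minus control (horizontal axis), of the tested markers of 12 cell types, 1 point for each gene by its brightest probe. Red points passed the test as higher, blue points as lower, open points did not pass, and the black bar is the list median. The medians of macrophage and T cell markers, at 1.66 and 1.78, lie right of 0 and that of B cell markers, at -0.25, lies left of it.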

How the data were processed

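Agilent 1-colour arrays measured RNA of splenocyte cultures, 2 with imatinib and 2 without. The intensity of each spot stands in the deposited scanner files, which Feature Extraction 9.1.3.1 wrote, per the file headers. The processed signal among these intensities has the background subtracted. The deposited value table holds log2 values that the authors made in GeneSpringGX, per the series' design text. Its columns and log2 of the scanner's signal differed by a constant, to a tolerance of 0.01, in 99.88% to 99.93% of probes; its medians were -3.99 and -3.92 in the imatinib columns and -4.10 and -4.17 in the control columns. It served as an alternative.

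Control spots and spots marked as outliers were left out, spots of a probe were averaged as log2 processed signal, and the 75th percentile over all spots of the array (699 and 678 with imatinib, 739 and 854 without) was subtracted. Tested were probes that both arrays of either group called well above background (25437, of which 62 were left out for a marked value) with limma 3.58.1 in R 4.3.3 (lmFit and eBayes, 2 residual degrees of freedom, 2.05 prior ones). Bounds were set against the higher of the gene's own signal and the lowest signal above background on each array. An adjusted p beside a bound is that of the fitted difference, and the bounds themselves were not tested. Of the probes, 26049 were named by accession, 3200 by symbol and 930 by synonym through RefSeq GRCm38.p6, and 9250 kept the file's name. In lists the brightest probe stood for its gene. Named were the 10 genes, from each pathway list up to 4 genes past the threshold by size of change, Stat6, Il4ra, Nos2, Rxra and Chil4, the brightest macrophage markers, and genes said in the text to be chosen after their values were seen, Fabp5 among them. The genes and lists were chosen with earlier results of these data known. The scripts were tested on simulated data. The labels do not say that the replicate numbers pair the arrays. Across probes, the deviations of the replicates in the 2 groups correlated at -0.069, which cannot show whether the cultures were paired. Alternatives were normexp, quantile normalization, median and spike-in scaling, 2 other filters, the deposited table, a trend and robust variance model, a replicate block and leaving out each array.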

Additional observations from a re-analysis of the deposited data

How the results depend on the processing

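Of 102 alternative values of the 8 tested genes, 97 kept their direction and their side of the threshold, and 6 of the 8 did so in all. The exceptions were Mgl2 (3 calls lost) and Pparg (2 calls gained). The count of the 10 genes that were higher was 6, or 4 to 7 over the alternatives, 4 being the count where only probes above background on all arrays were tested, which drops Arg1 and Fabp4. The count that was lower was 1, and 0 without a filter on dim probes and between 0 and 1 with each array left out. The fitted difference of Fabp4 was 5.24 without control 1 and 3.81 without control 2.

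Over all probes, the count that was higher (4905) became 2802 with spike-in scaling, 2837 with no filter on dim probes and 2417 to 4706 with each array left out. The count that was lower (5717) became 9251 with median centring, 11739 with spike-in scaling, 2134 with no filter and 1555 to 4172 with each array left out. With the replicate number as a block it was 3509, and the higher count was 3655; the block changed no call among the 8 tested genes. The sign turned for Clec1b (-0.10 with quantile normalization, -0.12 with median centring, -0.21 with spike-in scaling and -0.073 to 0.22 with each array left out), Igf1 (0.066 without control 1), Csf1r (-0.0058 with spike-in scaling), Il4ra (0.026 with quantile normalization) and Stat6 (-0.0014 with median centring and -0.096 with spike-in scaling), none of them past the threshold in the main setting. The cause was not tested. Among 49 other named genes followed over the alternatives, 575 of 623 values kept direction and call.

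Signal over background limits these results: Arg1 and Fabp4 have only bounds, and Retnla and Clec10a have no measured level. With 2 arrays a group, of unstated origin, the precision of every value is limited, and each gene rests on 1 probe.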
